A study of Mus musculus with 20 samples.

Results

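The Hox genes of the mouse encode homeodomain transcription factors and lie in the Hoxa, Hoxb, Hoxc and Hoxd clusters. All protein-coding genes of the GENCODE vM21 annotation whose symbol starts with Hoxa, Hoxb, Hoxc or Hoxd followed by a digit were taken, which gave 39 of 21938 protein-coding genes. There were 11 Hoxa, 10 Hoxb, 9 Hoxc and 9 Hoxd genes. A cluster was the span from the first to the last base of its Hox genes, and a window was that span with 100 kb on both sides.

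H3K27ac, an acetylated histone residue found at active promoters and enhancers, had been mapped by ChIP-seq in facial tissue of wild-type embryos. Each library came from the mixed cells of 1 dissected tissue. The tissues of e11.5 were the lateral and the medial nasal plate and the maxillary and mandibular processes. Nose, maxillary process and mandibular process made up the set of e13.5, and the same set was taken at e15.5. The 10 resulting lists held 6571 to 25941 peaks on chromosomes 1 to 19, X and Y, and the number of reads behind them is not known. There was 1 library per tissue and stage, so errors and p-values over libraries measure the spread between different tissues, and nothing in the labels says whether tissues came from the same embryos. At e15.5 the libraries labelled mandibular, maxillary and nose carried peak names that read nose, md and mx. They are called by their labels here, and results that rest on them are also given without them.

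Hox genes are switched on in nested domains along the body axis. Genes at the 3′ end of a cluster, such as Hoxa2, are active farthest towards the head, and those at the 5′ end, such as Hoxd13, act in the tail, the limb tips and the genital bud. The neural crest cells that build the upper and lower jaw and the nose are described in textbooks as free of Hox expression. In cells that keep Hox genes off, the clusters are typically covered by Polycomb proteins, whose mark is methylation of the same lysine. Expression and methylation were not measured in these libraries.

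Sequences at which the peak calls of the Hox windows turned are shown first, from the mouse build GRCm38, which is mm10, on the plus strand, with CG dinucleotides in capitals. The whole of the peak called inside the Hoxc cluster (chr15:103018355-103018607) held 3 CG dinucleotides in 253 bases. The central 300 bases of the peak called inside the Hoxd cluster (chr2:74713120-74713419) held 6. The central 300 bases of the stretch common to the peaks that 5 libraries shared beyond Hoxc4 (chr15:103115856-103116155) held 5.
Peak inside the Hoxc cluster: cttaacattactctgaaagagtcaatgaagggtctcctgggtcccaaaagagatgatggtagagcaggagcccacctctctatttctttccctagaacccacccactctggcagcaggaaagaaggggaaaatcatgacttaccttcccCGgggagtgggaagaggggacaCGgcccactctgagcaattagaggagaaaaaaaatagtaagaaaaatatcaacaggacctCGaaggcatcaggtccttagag
Peak inside the Hoxd cluster: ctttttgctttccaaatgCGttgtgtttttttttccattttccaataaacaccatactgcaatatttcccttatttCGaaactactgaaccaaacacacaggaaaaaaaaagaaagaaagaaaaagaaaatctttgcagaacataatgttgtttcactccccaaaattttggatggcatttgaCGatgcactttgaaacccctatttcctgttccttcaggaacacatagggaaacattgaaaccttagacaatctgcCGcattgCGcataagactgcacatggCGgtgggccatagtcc
Shared peak beyond Hoxc4: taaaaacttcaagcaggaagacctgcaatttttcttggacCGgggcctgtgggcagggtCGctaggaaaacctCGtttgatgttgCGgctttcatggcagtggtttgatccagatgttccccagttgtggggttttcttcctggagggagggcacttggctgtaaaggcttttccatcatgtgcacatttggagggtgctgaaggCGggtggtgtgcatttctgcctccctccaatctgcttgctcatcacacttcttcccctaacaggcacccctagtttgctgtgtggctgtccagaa

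Promoters are shown to set a Hox gene with no call beside a flanking gene that was called in nearly every library. Each is the 250 bases before the start site, from RefSeq on GRCm38.p6, read on the gene's own strand, with CG in capitals. Hoxa2, the gene that specifies the skeleton of the second pharyngeal arch, is on the minus strand (chr6:52164832-52165081) and held 6 CG dinucleotides. Hoxd1 is on the plus strand (chr2:74762730-74762979) and held 24. Mtx2, a mitochondrial import gene next to the Hoxd cluster, is on the plus strand (chr2:74825562-74825811) and held 12.
Hoxa2: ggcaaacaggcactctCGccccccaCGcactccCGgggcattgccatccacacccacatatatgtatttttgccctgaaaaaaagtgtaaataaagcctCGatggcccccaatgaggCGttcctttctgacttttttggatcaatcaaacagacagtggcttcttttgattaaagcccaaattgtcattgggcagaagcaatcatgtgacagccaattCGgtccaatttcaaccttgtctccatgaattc
Hoxd1: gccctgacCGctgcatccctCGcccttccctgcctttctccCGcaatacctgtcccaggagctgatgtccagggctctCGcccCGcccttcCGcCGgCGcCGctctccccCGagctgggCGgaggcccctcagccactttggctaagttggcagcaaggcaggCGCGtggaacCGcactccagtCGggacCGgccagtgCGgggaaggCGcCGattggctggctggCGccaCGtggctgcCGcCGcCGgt
Mtx2: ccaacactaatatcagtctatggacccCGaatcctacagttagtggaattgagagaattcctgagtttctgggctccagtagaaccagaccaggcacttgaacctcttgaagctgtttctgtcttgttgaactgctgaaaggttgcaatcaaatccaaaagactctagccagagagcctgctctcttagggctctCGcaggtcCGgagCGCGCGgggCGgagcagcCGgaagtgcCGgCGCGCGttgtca

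The Hox promoters carried almost no H3K27ac peak. A promoter counted as marked when a peak lay within 1 kb of any annotated start site of the gene. In 9 of the 10 libraries 0 of the 39 Hox genes were marked. In the e15.5 library labelled maxillary 1 was, Hoxc4, a gene of the anterior end of the Hoxc cluster. Over all genes and libraries this is 1 of 390 pairs, or 0.256%, against 36.0% of the pairs of all protein-coding genes. The share of all protein-coding genes that were marked was 24.9% in the e11.5 mandibular process, 20.5% in the maxillary process, 42.8% in the medial nasal plate and 43.6% in the lateral nasal plate. At e13.5 it was 24.1% in the mandibular process, 41.4% in the maxillary process and 51.9% in the nose. In the e15.5 libraries labelled mandibular, maxillary and nose it was 46.2%, 41.3% and 23.2%. The Hox count therefore lay at or next to 0 in lists that marked very different shares of the genome's genes. Of all protein-coding genes, 56.0% were marked in at least 1 library and 13.0% in all 10, and of the 39 Hox genes these were 1 and 0. The Hox genes are not independent of each other, since neighbours share a window and Hoxd3 and Hoxd4 have annotated starts next to each other.

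**Figure D1:**
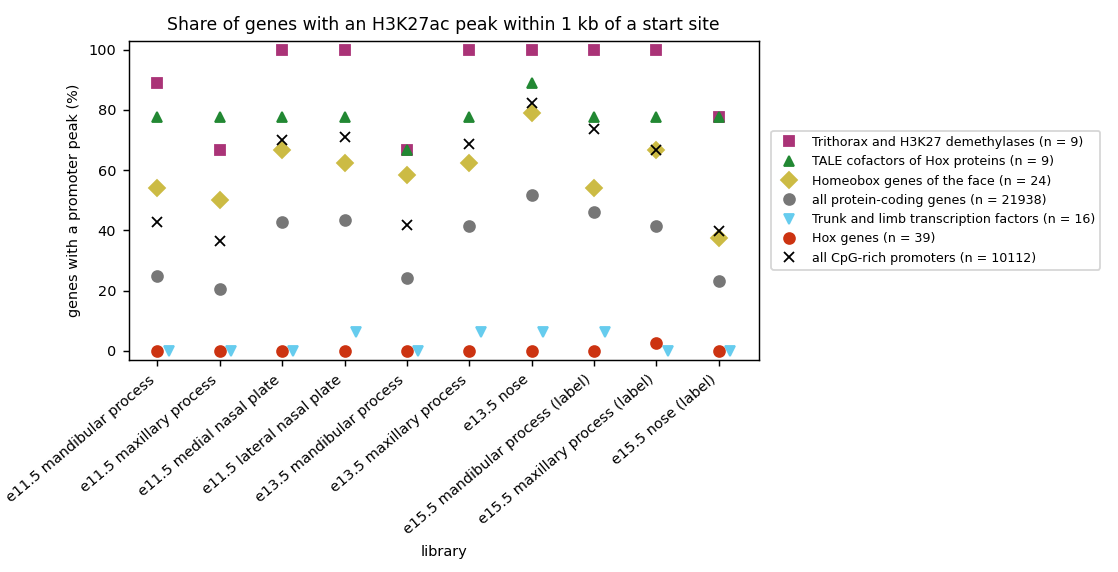
Percent of genes with an H3K27ac peak within 1 kb of a start site (vertical axis) in each of the 10 libraries (horizontal axis), with 1 symbol per gene list. Hox genes sit at 0% in 9 libraries, while all protein-coding genes lie between 20.5% and 51.9% and CpG-rich promoters between 36.6% and 82.4%.

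No difference between stages in Hox promoter marking passed the test. The number of marked Hox promoters averaged 0 at e11.5 (n = 4) and at e13.5 (n = 3) and 0.333 ± 0.577 (SD, n = 3) at e15.5. The slope was 0.0797 promoters per day, with an exact two-sided permutation p of 0.3 over 4200 assignments of stage to libraries. A p of 0.3 is what the test gives whenever 1 library of e15.5 alone holds a call. Without the library labelled maxillary every count was 0 and there was no slope. Between regions, 3 nasal libraries and 4 jaw libraries of e11.5 and e13.5 all had 0 marked Hox promoters. The 2 mandibular libraries and the 5 others of those stages likewise stood at 0. With every library at 0 the regional tests could give no other outcome than a difference of 0 and are not counted as tests passed or failed. Since the peak lists give calls and not signal, these comparisons concern peaks that passed the caller and say nothing of acetylation below it.

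Hoxc4 owed its call to a peak of 253 bp in the intergenic space 327 bp before the first of its 2 annotated start sites. Only 0.507% of the peaks of that library were narrower, and its −log10 q of 1.95 exceeded that of 30.3% of the list. The distance from Hoxc4 to the nearest peak was 78275, 180543, 178861 and 80683 bp in the e11.5 mandibular, maxillary, medial nasal and lateral nasal libraries. It was 204562, 128196 and 80280 bp in the e13.5 mandibular, maxillary and nose libraries, and 79942, 327 and 81140 bp in the e15.5 libraries labelled mandibular, maxillary and nose. The library labelled maxillary thus stood apart from the other 9, in which the nearest peak was at least 78275 bp away.

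The only other peak inside a cluster was in the same library. It was 628 bp wide, lay in the Hoxd cluster (chr2:74712956-74713583) in introns of Hoxd3 and Hoxd4 as annotated, and overlapped an exon of Hoxd3os1, an antisense transcript. It lay 1029 bp from a start of Hoxd3 and 1027 bp from a start of Hoxd4, just outside the 1 kb limit, and its −log10 q was 1.45, above 9.71% of the list. With a limit of 2.5 kb the library labelled maxillary had 3 marked Hox promoters, Hoxc4, Hoxd3 and Hoxd4, with 5 kb it had 4 and with 10 kb it had 6. In the other 9 libraries the number stayed at 0 up to 10 kb. Neither peak was kept at a −log10 q of at least 2 or in the top 6571 peaks of the list, and neither lay over a start site itself.

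The library that held both calls was 1 of the 3 whose label and peak names disagreed. Its peak names read md, and it was the only one of the 3 e15.5 libraries with a peak at Hand2, a gene of the mandibular arch, which was otherwise marked in the e11.5 and e13.5 mandibular libraries. In that library 5 of 8 mandibular patterning genes were marked, against 2 and 1 in the e15.5 libraries labelled mandibular and nose. Of all coding genes, 46.2% and 23.2% were marked in those and 41.3% in the library with the calls. Of 6 maxillary patterning genes 4 were marked in it, against 1 and 2, and Meox2 of this list was marked in no other library, so genes of both lists were marked most often there at e15.5. Of the skeletal muscle genes 2 of 7 were marked in that library (Myog and Tnnt1), of the endothelial genes 3 of 9 (Fli1, Pecam1 and Tek), of the erythroid and blood genes 1 of 9 (Runx1), and of the neuronal genes 1 of 9 (Isl1), beside 41.3% of all coding genes. Tek and Tnnt1 were marked in no other library. The muscle regulators Myod1 and Myf5, the endothelial genes Cdh5 and Kdr, and Gata1, Hba-a1 and Neurog1 had no promoter peak in any library. These lists had 0 to 2, 0 to 3, 0 to 4 and 0 to 2 marked genes over the 10 libraries, and their part in the Hox calls was not tested. In bulk tissue a few cells with strong acetylation and many with weak acetylation cannot be told apart.

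The coverage of the clusters followed the same calls. Over 491815 bp of cluster, peaks took up 881 bp or 0.179% in the e15.5 library labelled maxillary and 0 bp in the other 9. By cluster this was 0.219% of Hoxc and 0.649% of Hoxd, with 0 in Hoxa and Hoxb in all 10 libraries. The slope over stage was 0.0143 percentage points per day, with an exact permutation p of 0.3. For Hoxc and for Hoxd alone the Benjamini-Hochberg adjusted exact permutation p over the 4 clusters was 0.6. Nasal and jaw libraries of e11.5 and e13.5 all had 0% coverage, which left nothing to test. Over the whole genome the peak widths added up to 10497772 to 49368521 bp per list, and to 34838327 bp in the library labelled maxillary. The share of the genome that these make up was not computed.

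Most peaks of the windows lay in the flanks. The windows held 31 peaks in the 10 libraries, and 29 of these were outside the clusters. The libraries had 3, 1, 3 and 5 window peaks in the e11.5 mandibular, maxillary, medial nasal and lateral nasal tissue. They had 1, 2 and 3 in the e13.5 mandibular process, maxillary process and nose, and 3, 8 and 2 in the e15.5 libraries labelled mandibular, maxillary and nose. The library labelled maxillary was again the highest. Merged where they overlapped by at least 1 bp, the 31 peaks formed 14 regions, of which 11 were in 1 library and 3 in 5 or more. How many of all merged regions of the genome were in 1 library was not counted.

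**Figure D2:**
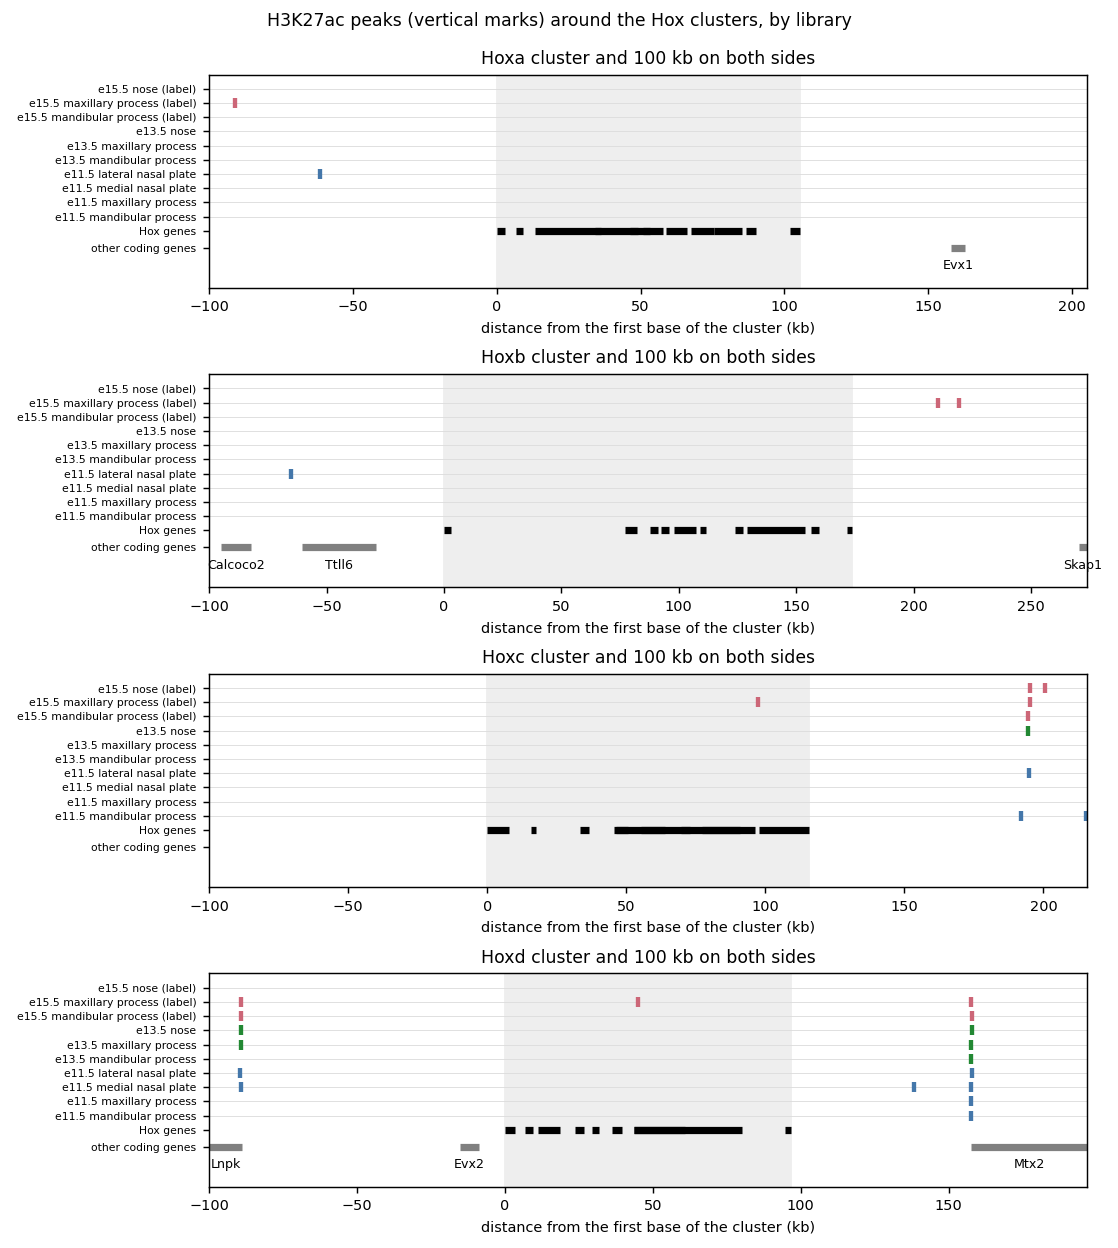
Position of each H3K27ac peak (vertical marks, centres of the peaks) in the 4 Hox windows, in kb from the first base of each cluster, with 1 row per library and colours for the 3 stages. Grey shading is the cluster, black bars are Hox genes and grey bars are the 7 coding genes outside the clusters. Stages are blue (e11.5), green (e13.5) and red (e15.5). Marks stand at Lnpk, at Mtx2 and beyond Hoxc4 in 5 or more libraries, and 2 marks lie inside a cluster.

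Relative to the length of each list, the windows held 1.16 to 4.83 peaks per 10000. The mean was 2.22 ± 0.982 (SD, n = 4) at e11.5, 1.49 ± 0.353 (SD, n = 3) at e13.5 and 2.98 ± 1.69 (SD, n = 3) at e15.5. The slope of 0.166 per day did not exceed the spread between libraries, with an exact permutation p of 0.509. Its direction turned without the library labelled maxillary, to -0.0797 per day with an exact permutation p of 0.667. The windows span 1291815 bp, and how many peaks per 10000 an even spread over the genome would put there was not computed.

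The start of Mtx2 was the most frequently marked place in the windows. Its peak was called in 9 libraries and was missing from the e15.5 library labelled nose, whose list held 7728 peaks. It was 1251, 1209, 1027 and 1446 bp wide in the e11.5 mandibular, maxillary, medial nasal and lateral nasal libraries. It was 1129, 1795 and 1227 bp wide in the e13.5 mandibular, maxillary and nose libraries, and 1321 and 1052 bp wide in the e15.5 libraries labelled mandibular and maxillary. Widths of the stages overlapped. Every one of these peaks reached from 326 to 719 bp upstream of the first annotated start to 629 to 1075 bp downstream of it. Ranked by q within its own list the Mtx2 peak stood above 91.7% of peaks in the e13.5 nose and above 11% in the e13.5 mandibular process, so it was a strong call in some lists and a weak one in others.

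Lnpk, which encodes a protein of endoplasmic reticulum junctions, lies on the other side of the Hoxd cluster, beyond Evx2. Its start was marked in 6 libraries. The peak was 1523 and 1409 bp wide in the e11.5 medial and lateral nasal plates, 1404 and 1346 bp in the e13.5 maxillary process and nose, and 1069 and 1267 bp in the e15.5 libraries labelled mandibular and maxillary. The lists with the peak held 10753 to 25941 peaks and those without it held 6571 to 8402, so its presence moved with list length. The antisense gene 4930445N08Rik starts within the same peak, and the call cannot be assigned to either gene. Together the peaks at Mtx2 and Lnpk were 15 of the 31 window peaks.

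**Figure D3:**
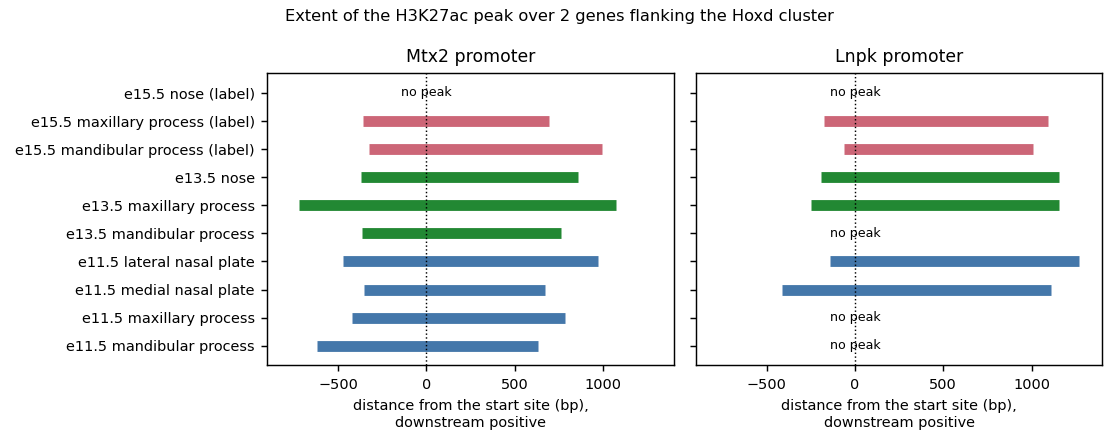
Extent of the H3K27ac peak around the first annotated start site of Mtx2 (left) and Lnpk (right) in bp, downstream positive, with 1 bar per library coloured by stage. Mtx2 has a peak in 9 libraries and Lnpk in 6, and the Lnpk peaks reach 1006 to 1268 bp downstream but no more than 414 bp upstream.

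Counting the flanks changed what was seen between regions. With 100 kb on both sides included, the peaks covered 0.187 percentage points more of the windows in the 3 nasal than in the 4 jaw libraries of e11.5 and e13.5, with an exact permutation p of 0.0857. The coverage was 0.219%, 0.441% and 0.349% in the medial nasal plate, the lateral nasal plate and the e13.5 nose. It was 0.169% and 0.0936% in the mandibular and maxillary processes of e11.5, and 0.0874% and 0.248% in those of e13.5. Within each stage the nasal libraries lay above the jaw libraries, while across stages the e13.5 maxillary process lay above the medial nasal plate. With stage as a block the difference was 0.192 percentage points, with an exact permutation p of 0.111 over 18 assignments. The nasal lists were also the longest of these 7. Over the whole genome their peak widths added up to 35709152, 33610657 and 49368521 bp, in the order given above. In the jaw lists these sums were 15517715, 10497772, 14190299 and 21294693 bp. The part of list length and of total width was not tested.

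The third recurrent region lay beyond the anterior end of the Hoxc cluster. The region (chr15:103114337-103117355) began 77485 bp past Hoxc4 in intergenic sequence, 40647 bp from the nearest start of a coding gene, Smug1, a DNA repair glycosylase. It was called in the e11.5 lateral nasal plate at 1558 bp, in the e13.5 nose at 1939 bp, and in the e15.5 libraries labelled mandibular, maxillary and nose at 2140, 2416 and 1284 bp. It was thus in 1 of 4, 1 of 3 and 3 of 3 libraries of the successive stages. The peaks shared a core of 942 bp, whose centre is printed above. The lists with the region held 7728 to 25941 peaks and those without it 6571 to 20492, and the part of list length was not tested. In the e13.5 nose its −log10 q of 1.48 stood above 8.67% of the list, and in the e15.5 library labelled nose its 2.2 stood above 61.0%. Neighbouring peaks of 540 bp in the e11.5 mandibular process and of 471 bp in the e15.5 library labelled nose were separate calls.

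The remaining flank peaks were each in 1 library. Before the anterior end of the Hoxa cluster a peak of 363 bp lay 61423 bp away in the e11.5 lateral nasal plate and one of 1062 bp lay 90455 bp away in the e15.5 library labelled maxillary. The noncoding gene Halr1 has the start nearest to both. On the Hoxb1 side of the Hoxb cluster the library labelled maxillary had peaks of 1906 and 1828 bp, 35529 and 44566 bp away. On the Hoxb13 side a peak of 920 bp in the e11.5 lateral nasal plate lay 4228 bp from a start of Ttll6, a tubulin glutamylase. A peak of 390 bp in the e11.5 mandibular process lay 99377 bp past the Hoxc cluster in introns of noncoding genes, and one of 275 bp in the e11.5 medial nasal plate lay between Hoxd1 and Mtx2. No Hoxa or Hoxb flank peak was in more than 1 library.

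A peak just outside the Hoxb window was found in all 4 libraries of e11.5 and in none of the 6 later ones. It began 123434 to 124335 bp past Hoxb1, inside Skap1, an adaptor gene of immune cells. It was 1103, 1079, 1885 and 1483 bp wide in the mandibular, maxillary, medial nasal and lateral nasal libraries. In these lists it ranked low by q, above 6.15%, 14.8%, 1.58% and 26.2% of peaks. Of 42348 merged regions of the genome 20, or 0.0472%, had the same pattern of presence. The region was singled out after its values had been seen and is given with no test. Separate peaks of 388 and 317 bp began 126698 and 145230 bp past Hoxb1 in the medial nasal library.

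The distance from each Hox gene to the nearest peak shows how far the marked sequence lay. Over the 390 pairs of gene and library the median was 169094 bp, and 317 pairs were beyond 100 kb. Only 16 pairs were within 50 kb, and 1 of these was outside the e15.5 library labelled maxillary. That pair was Hoxd1 in the e11.5 medial nasal plate, 43341 bp from a peak. In the Hoxb cluster the closest was Hoxb1, at 37527 bp in the library labelled maxillary. Distances over all coding genes were not computed, so whether those of the Hox genes are long for these lists is not known.

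**Figure D4:**
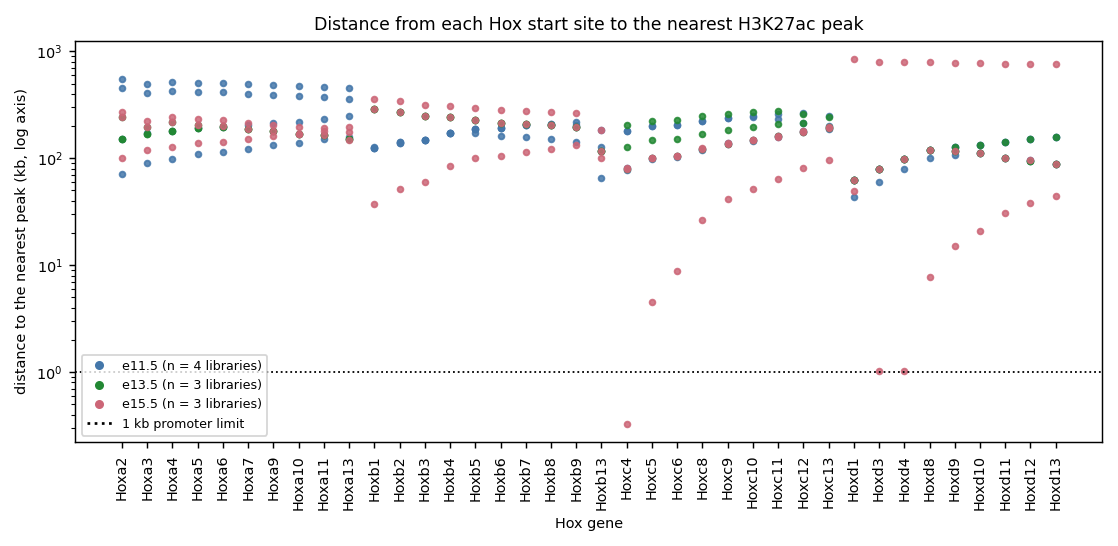
Distance in kb (log axis) from the nearest annotated start site of each of 38 of the 39 Hox genes (1 is not reported here) to the nearest H3K27ac peak, with 1 point per library coloured by stage, genes ordered along each cluster by number. The dotted line is the 1 kb limit for a marked promoter, and Hoxc4 in 1 e15.5 library is below it.

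Hoxa2 is the gene whose loss turns the skeleton of the second arch into that of the first. It was 457148, 548929, 151757 and 70664 bp from the nearest peak in the e11.5 mandibular, maxillary, medial nasal and lateral nasal libraries. It was 246149, 151686 and 151711 bp away in the e13.5 mandibular, maxillary and nose libraries, and 273068, 99696 and 246023 bp away in the e15.5 libraries labelled mandibular, maxillary and nose. Stages overlapped. Hoxd1, at the anterior end of the Hoxd cluster, was 62104 to 62497 bp from a peak in 7 libraries, where the nearest peak was that of Mtx2. It was 43341 bp away in the e11.5 medial nasal plate, 49397 bp in the e15.5 library labelled maxillary and 850836 bp in the one labelled nose. Hoxd13, at the opposite end, was 88461 to 88813 bp away in 5 libraries in which the Lnpk peak was nearest.

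The bare clusters lay in long stretches without a peak in any of the 10 lists. The Hoxa stretch ran for 316686 bp and held 14 coding genes, among them all 11 Hoxa genes and Evx1. The Hoxb stretch ran for 274226 bp and held all 10 Hoxb genes and Ttll6. The Hoxc cluster was divided by the peak before Hoxc4, with a stretch of 287423 bp that held the other 8 Hoxc genes. The Hoxd cluster was divided likewise, with 133106 bp that held Evx2 and 6 genes from Hoxd13 to Hoxd8. Of 4321 peak-free stretches with a coding gene, 8 had 5 or more coding genes with a CpG-rich promoter. The Hoxa, Hoxd and Hoxc stretches were among these, with 8, 6 and 5, and the Hoxb stretch had 4. The other 5 included families of near-identical copies, such as the interferon alpha and H2-Q genes, where reads may not be placed.

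Most Hox promoters were rich in CpG dinucleotides. A promoter was CpG-rich when 1000 bases around a start site had at least 55% G and C and a CpG ratio, observed over expected, of at least 0.6. Of the 39 Hox genes 25, or 64.1%, were CpG-rich, and 0 of these had a peak in any library. Among all coding genes the CpG-rich share was 46.1%. Of 10112 CpG-rich coding genes in all, 85.6% were marked in at least 1 library and 23.6% in all 10, and 36.6% to 82.4% in single libraries. The median CpG ratio was 0.720 over the Hox genes and 0.625 over all coding genes. Hoxd8 had a ratio of 1.0 and Hoxa5 of 0.995, and Hoxb2, which acts in the hindbrain, had the lowest at 0.399. Hoxa5 did not count as CpG-rich, since its G and C content of 54.6% was under the limit of 55%. Mtx2, with 0.884, and Lnpk, with 0.786, lay inside the Hox range.

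Short sequence motifs were searched on both strands of the RefSeq promoters, from 250 bases before to 50 bases after the start, where 22 of the 39 Hox genes matched 24 promoters. Matches of different motifs were counted even where they overlapped. TGATNNAT, a site of PBX and HOX dimers, was in 4 of the 24 (Hoxa2, Hoxb1, Hoxb8 and Hoxd11), or 16.7%, and in 8.85% of all 32851 promoters. TGACAG, a MEIS site, was in 2 (Hoxa2 and Hoxa3), or 8.33%, and in 19.2% of all promoters. TAATTA, a homeodomain core, was in 8.33% of the Hox and 5.29% of all promoters, and TATAAA, the TATA box, in 16.7% and 13.6%. AGGGGGC, a CTCF core, was in 8.33% and 10.6%, and GAGAGAG in 8.33% and 10.1%. These are descriptions of the sequence with no test.

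Other genes of the windows were also mostly without a peak. Of 10 coding genes other than Hox genes, 2 were marked in any library, Lnpk and Mtx2, beside 56.0% of all coding genes. Evx1 and Evx2, homeobox genes at the posterior ends of the Hoxa and Hoxd clusters that are often regulated with them, were marked in 0 of 10 libraries. So were Calcoco2, Ttll6 and Skap1, and the coding models Gm28308, 5730596B20Rik and Gm28230 inside the clusters. Of 43 noncoding genes inside the clusters 1 was marked, Hoxd3os1, in the e15.5 library labelled maxillary. The share of all noncoding genes that were marked was not counted, so whether 1 of 43 is few is not known. The noncoding regulators Hotair in the Hoxc cluster and Hotairm1 in the Hoxa cluster were unmarked in all libraries, and so was Hottip next to Hoxa13.

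How many microRNA genes of the whole genome were marked was not counted. Of the microRNA genes inside the clusters, 0 of 7 had a peak within 1 kb of their annotated start. The mature sequences, from RefSeq, are shown because these microRNAs repress Hox messages and recur between clusters, with the seed at bases 2 to 8 in capitals. Both members of the first family share a seed and differ by U12A, counted from the 5′ end with the base of miR-10a first. Those of the second differ by A12C, with the base of miR-196a first, and miR-196a is made from genes in the Hoxb and Hoxc clusters.
miR-10a-5p, Hoxb cluster (chr11:96317186-96317208, plus strand): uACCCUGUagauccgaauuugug
miR-10b-5p, Hoxd cluster (chr2:74726074-74726096, plus strand): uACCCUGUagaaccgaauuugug
miR-196a-5p, Hoxb cluster (chr11:96265187-96265208, plus strand) and Hoxc cluster (chr15:102973365-102973386, plus strand): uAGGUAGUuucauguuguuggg
miR-196b-5p, Hoxa cluster (chr6:52230129-52230150, minus strand): uAGGUAGUuuccuguuguuggg

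Genes that work with Hox proteins were marked in most libraries. Of the 9 TALE homeodomain cofactors, which bind DNA with Hox proteins, 6 to 8 were marked in each library and 77.8% of pairs of gene and library in all, beside 36.0% over all coding genes. Meis1, Meis2 and Pbx2 were marked in 10 libraries, Pbx3 in 9, Meis3 in 1 and Pbx4 in 0. Of 9 upstream activators of Hox genes, 3 to 5 were marked. The retinoic acid receptors Rara and Rarg were marked in 10 libraries, Rarb in 8, and Egr2, a hindbrain segmentation gene, in 3. Cdx1, Cdx2 and Cdx4, which activate posterior Hox genes, and Aldh1a2, which makes retinoic acid, were marked in 0. Over this list 43.3% of pairs were marked, beside 36.0% over all coding genes.

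Genes of the chromatin machinery that keeps Hox clusters off or on were marked too. Of 20 Polycomb subunits, 10 to 19 were marked in each library, or 76.0% of pairs, beside 36.0% over all coding genes. Eed, Ezh2, Jarid2 and Mtf2 were marked in 10 libraries, while Cbx7 was marked in 1, Ezh1 and Phf19 in 3 and Cbx8 in 5. Of 9 Trithorax and H3K27 demethylase genes, 6 to 9 were marked, or 81 of 90 pairs of gene and library, beside the same 36.0%. Ash1l, Kdm6a, Kmt2a and Kmt2c were marked in 10 libraries, Kdm6b in 9, Men1 and Wdr5 in 8 and Kmt2b in 6.

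Homeobox genes outside the Hox clusters that act in the face were marked in more pairs than coding genes at large. Of 24, between 9 and 19 were marked in each library, or 59.2% of pairs, against 36.0%. Of all CpG-rich coding genes 36.6% to 82.4% were marked in single libraries, and the CpG content of this list was not compared. Alx4, Msx1, Prrx1 and Prrx2 were marked in 10 libraries, while Barx1 and Dlx4 were marked in 0, Dlx3 in 1 and Lhx6 in 3. Transcription factors of trunk and limb were rarely marked, with 0 or 1 of 16 marked in each library and 2.5% of pairs, against the same 36.0%. Foxa3, of gut endoderm, was marked in 4 libraries, and the other 15, such as Cdx1, Cdx2, Gata4 and Gata6, in 0. The difference between Hox genes and these lists is given as counts, and no test was run on it.

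The labelled regions were checked against patterning genes. Of 8 mandibular genes 5 were marked in each of the e11.5 and e13.5 mandibular libraries and 1 and 3 in the maxillary ones, but also 5 in the e13.5 nose, and Hand1 and Nkx3-2 had no promoter peak in any library. Over the list 32 of 80 pairs were marked, a share close to the 36.0% of all coding genes. Of 9 frontonasal genes, 7 to 8 were marked in the nasal plates and the e13.5 nose and 1 to 5 in the jaw libraries of those stages, or 56.7% of pairs over the 10 libraries, and at e15.5 the library labelled mandibular had 8. The share of all coding genes was also higher in those nasal libraries, at 42.8% to 51.9%, than in the jaw libraries, at 20.5% to 41.4%. The maxillary list did not separate the regions, with 3 of 6 genes in both jaw processes of e11.5 and 2 in both of e13.5, against 3 in the nose of e13.5 and 2 in either nasal plate. Erythroid and blood genes were marked in 16.7% of pairs, endothelial genes in 21.1%, skeletal muscle genes in 7 of 70 pairs and neuronal genes in 7.78%, below the 36.0% of all coding genes.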

How the data were processed

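The 10 deposited H3K27ac lists are broad peaks called per sample, and 10 input samples were not analysed here. Per the submitters' processing notes the authors used BWA 0.7.7, SAMtools 0.1.19, MACS2 2.2.4 and build mm10. For its human data the study describes broad calling at a q-value under 0.05, and the settings for these mouse lists are not given in the sources used here. Beside each position, the authors' lists hold the caller's score, the fold over background, and p-value and q-value as −log10. These were used only to rank or filter within a list, whose lowest −log10 q was 1.30. Members, gene lists, tests and most alternatives were chosen with earlier results of these data known. All Hox genes, all window regions, coding neighbours, and up to 4 genes with the most and the fewest marked libraries per list were to be named, ties alphabetical, and genes named beyond that were chosen after their values were seen. Values of a few single genes are not reported here. Start sites came from GENCODE vM21 (132721). Exact two-sided permutation tests over libraries had a threshold of 0.05. The e15.5 libraries were left out of regional tests because of their labels. Promoter calls were checked on planted peaks. The slope test was checked on random values with and without an added slope, which are unlike counts that are nearly all 0. Coverage and the regional difference test were not checked in this way. Python 3.11.15 was used with pandas 2.3.3, numpy 2.4.6 and matplotlib 3.10.9.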

Additional observations from a re-analysis of the deposited data

Results flagged for a closer look

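Among the 4 libraries of e11.5, the shared region beyond Hoxc4 was called in the lateral nasal plate alone, at 1558 bp, and with an uncalled region entered as a width of 0 bp this value stood outside the other 3. Entered this way, any region called in 1 of the 4 libraries stands out.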

How the results depend on the processing

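Of 87 alternative values for the 6 tests, 0 passed the threshold of 0.05. Many of these outcomes were fixed beforehand. Marked Hox promoters and cluster coverage were 0 in every library of e11.5 and e13.5. With stage as a block, an exact permutation p could not fall below 0.0556 or 0.0833. The promoter and cluster slopes rested on the calls of 1 library. The count of 0 is therefore no measure of how stable the results are. The slope of marked Hox promoters was 0 promoters per day at a −log10 q of at least 2, with lists of equal length (the top 6571 peaks), with only peaks over the start site itself, and without the e15.5 libraries, and the slope of cluster coverage was 0 at that −log10 q, at equal length and without the e15.5 libraries. The slopes rose to 0.239 promoters per day with a 2.5 kb promoter window and to 0.0479 percentage points per day with the flanks, neither past the threshold. Leaving out 1 library at a time gave 0 to 0.11 promoters per day, 0 to 0.0197 percentage points per day and -0.0797 to 0.303 window peaks per 10000 per day, the lowest without the e15.5 library labelled maxillary. The slope of window peaks fell to -0.363 per day without the e15.5 libraries. With the e15.5 libraries as labelled, the nasal minus jaw difference was -0.167 promoters and -0.0299 percentage points. The mandibular minus other difference was then -0.143 promoters. These differences rest on the calls of the library labelled maxillary, whose peak names read md. Grouped by peak names, that library would count as mandibular and the sign of the last difference would turn. With the flanks the nasal minus jaw coverage differed by 0.187 percentage points. Blocks were added after seeing the data. With tissue as a block (mandibular, maxillary and nose, 8 libraries as labelled) the slopes were 0.111 promoters, 0.0199 percentage points and 0.218 window peaks per 10000 per day, and with stage as a block the regional differences stayed at 0, or 0.192 percentage points with the flanks. Depth is unknown, so an uncalled promoter may hold acetylation under the caller's limit, and the lists cannot show how much.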

Other observations

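The deposited peak names are numbered in the order of position, and the numbers leave gaps. In the 10 lists between 80801 and 1260984 numbers were missing, and the highest number was 91698 to 1276074. What the missing numbers stood for is not stated in the sources used here. In the peak-to-peak stretches that hold the Hox clusters the missing numbers per 100 kb were 0.470 to 1.13 times those of the whole genome. The ratio was above 1 in the 4 shortest lists, at 1.10, 1.04, 1.13 and 1.12, and below 1 in the other 6. These stretches added up to 1316918 to 3945750 bp per library, against 491815 bp of cluster. Most of the sequence counted was thus flank.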
